A study of Saccharomyces cerevisiae with 15 samples.

Results

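The pentose phosphate pathway of budding yeast was described through 10 genes, ZWF1, SOL3, SOL4, GND1, GND2, RKI1, TKL1, TKL2, TAL1 and NQM1. They were taken by symbol from the gene table of the array, each had 1 probe set, and they are 10 of the 5449 S. cerevisiae genes that were tested. Whole cell RNA from S. cerevisiae S288C (MATα) was hybridized to 15 Affymetrix arrays, with 3 biological replicates for each of 5 strains. In the gcn5 null strain GCN5 had been replaced by a hygromycin resistance gene, and the cells carried a control plasmid without GCN5. Wild-type cells kept GCN5 and carried the same control plasmid. In the gcn5-F221A strains the native GCN5 was also kept, and a centromeric plasmid expressed the catalytically inactive allele gcn5-F221A from mutant TEF promoters of strength 0.32, 0.68 or 0.95 relative to the unmutated promoter. All cultures grew in minimal medium with glucose at 20 g/L and G418, for which every plasmid carried a resistance gene, at 200 µg/mL, and they were harvested during exponential growth. Values are log2 signals per probe set, so a log2 difference of 1 is a doubling, and signals are compared between strains and never between probe sets.

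The pathway starts from glucose 6-phosphate. Its oxidative branch makes NADPH, the reductant of biosynthesis and of the defence against oxidants, and ends in ribulose 5-phosphate. Its non-oxidative branch interconverts sugar phosphates, supplies ribose 5-phosphate for nucleotides and erythrose 4-phosphate for aromatic amino acids, and returns the rest to glycolysis. Yeast holds 2 genes for several steps, and the 4 pairs of isoenzymes or homologs followed here were SOL4 and SOL3, GND2 and GND1, TKL2 and TKL1, and NQM1 and TAL1. Gcn5 is the histone acetyltransferase of the SAGA complex, a coactivator of many genes.

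GCN5 itself checked the strains. Its log2 signal was 5.78 ± 0.05 in gcn5 null and 8.92 ± 0.06 in wild-type, while in the gcn5-F221A strains (SD and n = 3 throughout) it stood at 11.50 ± 0.07 for 0.32, 11.90 ± 0.16 for 0.68 and 13.13 ± 0.06 for 0.95. Native and mutant copies are not told apart by this probe set. Of the S. pombe probe sets on the array, which stand for background, 95% lay below 5.20, and the lowest signal of any pathway gene on any array was 6.66. Replicate arrays correlated at 0.977 to 0.998 over all genes, and the lowest correlations were at 0.68 and 0.32. The mean signal of 23 stress genes was 11.10 ± 0.05 in gcn5 null and 10.60 ± 0.18 in wild-type, and with gcn5-F221A at rising strengths it was 10.63 ± 0.55, 11.22 ± 0.47 and 11.48 ± 0.11 (SD, n = 3 each). For 8 control genes with probe sets at either end, the signal at the 5′ end minus that at the 3′ end, a measure of RNA quality and labelling, was -2.90 ± 0.22 in gcn5 null and -3.44 ± 0.22 in wild-type, and -3.53 ± 0.38, -2.94 ± 0.46 and -3.11 ± 0.34 at 0.32, 0.68 and 0.95 (SD, n = 3 each). The 4 alpha-specific genes fell in gcn5 null, most of all MF(ALPHA)2 by 4.91, with SAG1 at -2.95, STE3 at -2.21 and MF(ALPHA)1 at -0.79. Of 5 a-specific genes 2 rose there, STE6 by 0.47 and BAR1 by 0.46, in a strain where 41.0% of all genes passed, and the highest a-specific signal on any array was 8.95.

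In gcn5 null, ZWF1, GND1 and TAL1 rose and RKI1 fell, so that 4 of the 10 genes passed the limma test at an adjusted p under 0.05, where 41.0% of all genes did. With gcn5-F221A at 0.95 only SOL4 passed, 1 of 10 genes against 12.5% of all genes, while TKL2, NQM1 and GND2 had signals above wild-type on every array and did not pass. The slope over strengths 0, 0.32, 0.68 and 0.95, in log2 units per unit of promoter strength, passed for SOL4 alone, 1 of 10 genes against 15.7% of all. At 0.68 GND1 and TAL1 rose, 2 of 10 against 12.4%, and at 0.32 none of the 10 passed, against 1.60%. These shares do not set the pathway apart from all genes. The median log2 difference of the 10 genes was 0.26 in gcn5 null, -0.05 at 0.32, 0.43 at 0.68 and 0.18 at 0.95, where the medians of all genes were -0.01, 0.00, -0.01 and -0.00.

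**Figure D1:**
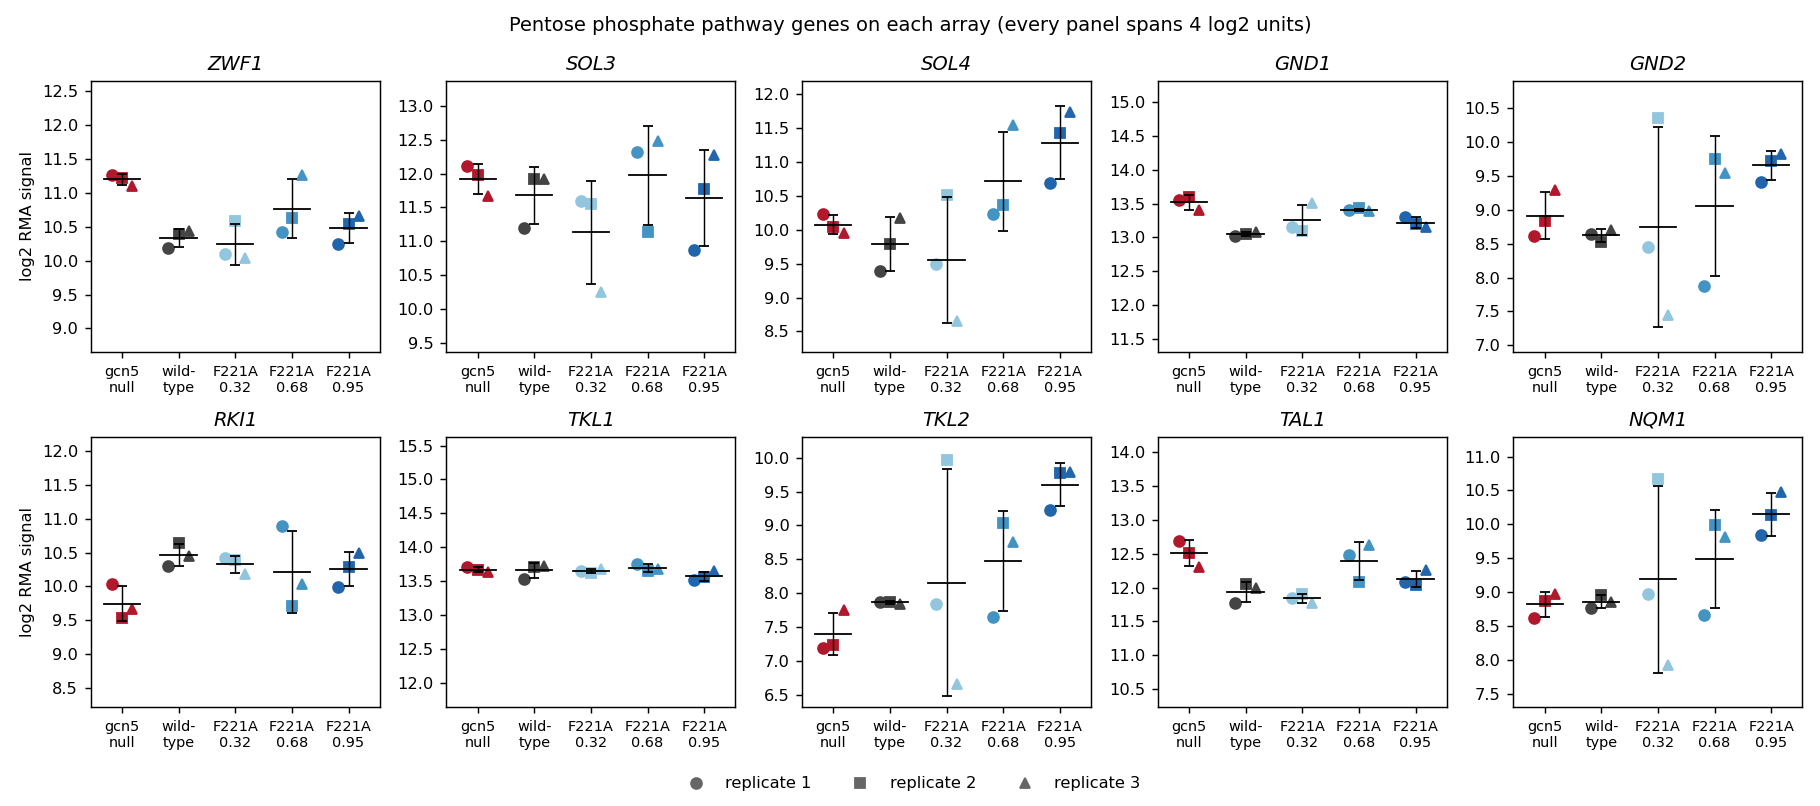
Log2 RMA signal (vertical axes, each spanning 4 log2 units) of the 10 pathway genes on each of the 15 arrays, by strain (horizontal axes), with the strain mean as a line and the SD as a bar. ZWF1, GND1 and TAL1 stand highest in gcn5 null, TKL1 varies least, and TKL2, NQM1, GND2 and SOL4 stand above wild-type on all 3 arrays at 0.95 and scatter widely at 0.32.

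ZWF1 encodes glucose 6-phosphate dehydrogenase, the entry step of the oxidative branch (YNL241C, chromosome XIV, 196426 to 197943 of assembly R64). Its log2 signals were 11.27, 11.22 and 11.11 in gcn5 null and 10.19, 10.40 and 10.44 in wild-type. Every gcn5 null array stood above every wild-type array, and the difference was 0.86 (SE 0.20, limma adjusted p = 0.00402), a 1.82-fold rise with a 95% interval of 1.35 to 2.44. With gcn5-F221A the signals were 10.10, 10.58 and 10.04 at 0.32, 10.43, 10.63 and 11.26 at 0.68, and 10.24, 10.55 and 10.66 at 0.95. Only replicate 3 at 0.68 came up to the gcn5 null level, and the slope of 0.32 (SE 0.19) did not pass (limma adjusted p = 0.287). Without 0.68 replicate 1 the rise at 0.68 passed (0.60, limma adjusted p = 0.0426). At 0.95 ZWF1 was lower than in gcn5 null by a log2 difference of -0.72 (SE 0.20, limma adjusted p = 0.0134). That call was lost without 0.95 replicate 1 (-0.60, limma adjusted p = 0.0605).

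The second step, the hydrolysis of 6-phosphogluconolactone, is carried out by the products of SOL3 (YHR163W, chromosome VIII, 423724 to 424473) and SOL4 (YGR248W, chromosome VII, 985972 to 986739). SOL4 had log2 signals of 10.23, 10.04 and 9.96 in gcn5 null and 9.39, 9.80 and 10.18 in wild-type. It had 9.50, 10.52 and 8.66 at 0.32, 10.23, 10.36 and 11.55 at 0.68, and 10.69, 11.43 and 11.74 at 0.95. The arrays at 0.68 and at 0.95 were all above those of wild-type, the gcn5 null arrays overlapped them, and at 0.32 the 3 arrays lay on either side. At 0.95 SOL4 rose by 1.495 (SE 0.44, limma adjusted p = 0.044), a 2.82-fold rise with a 95% interval of 1.45 to 5.47, and its slope was 1.76 (SE 0.43, limma adjusted p = 0.0175). The difference of gcn5 null from wild-type was 0.29 (SE 0.44, limma adjusted p = 0.642).

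SOL3 moved among replicates more than between strains. Its strain means were 11.92 ± 0.22 in gcn5 null and 11.68 ± 0.42 in wild-type, and 11.13 ± 0.76, 11.98 ± 0.73 and 11.64 ± 0.71 over the rising strengths (SD, n = 3 each), and no comparison passed. In each strain other than gcn5 null its SD lay above that of at least 98.1% of genes, and so did that of SOL4. The SD of their difference within an array was 0.18 at 0.95, where that of SOL4 alone was 0.54. In proportion the gain was smaller at 0.32, with 0.54 for the difference and 0.93 for SOL4, and in wild-type, with 0.20 and 0.40. At 0.68 (0.72 and 0.73) and in gcn5 null (0.12 and 0.14) there was almost none. The difference of SOL4 minus SOL3 rose with promoter strength at a slope of 1.51 (exact permutation test over 369600 arrangements of 12 arrays, two-sided, p = 0.00431, adjusted over the 4 pairs p = 0.0173). Without wild-type replicate 2 the slope was 1.40 (adjusted p = 0.062), and without 0.68 replicate 2 it was 1.42 (adjusted p = 0.0521). The rise of SOL4 at 0.95 was not called without any 1 wild-type array (limma adjusted p = 0.156, 0.109 and 0.0609), any 1 gcn5 null array (0.0593, 0.0621 and 0.0595), 0.95 replicate 2 or 3 (0.124 and 0.146) or 0.32 replicate 1 (0.057). Its slope was not called without wild-type replicate 1 or 2 (1.57 and 1.76, limma adjusted p = 0.0704 and 0.0515) or without 0.95 replicate 2 or 3 (1.69 and 1.56, limma adjusted p = 0.0542 and 0.0611).

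6-Phosphogluconate dehydrogenase, which makes the second NADPH and ribulose 5-phosphate, is encoded by GND1 (YHR183W, chromosome VIII, 470960 to 472429) and GND2 (YGR256W, chromosome VII, 1004624 to 1006102). GND1 had log2 signals of 13.55, 13.60 and 13.40 in gcn5 null and 13.02, 13.05 and 13.08 in wild-type. It had 13.16, 13.10 and 13.51 at 0.32, 13.40, 13.43 and 13.40 at 0.68, and 13.31, 13.19 and 13.15 at 0.95. All arrays of the other strains lay above the wild-type arrays, which were within 0.06 of each other. The rise was 0.47 in gcn5 null (SE 0.10, limma adjusted p = 0.00227) and 0.36 at 0.68 (SE 0.10, limma adjusted p = 0.0346), while the difference at 0.95 was 0.17 (SE 0.10, limma adjusted p = 0.30). The order was thus not that of the promoter strengths, and the slope of 0.22 did not pass (limma adjusted p = 0.144). The call at 0.68 was lost without any 1 wild-type array (limma adjusted p = 0.111, 0.0901 and 0.0712), without 0.68 replicate 2 or 3 (0.0748 and 0.114) and without 0.95 replicate 2 (0.0528), and the slope passed without 0.32 replicate 3 (0.26, limma adjusted p = 0.0228).

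GND2 had log2 signals of 8.61, 8.83 and 9.29 in gcn5 null and 8.64, 8.52 and 8.70 in wild-type. It had 8.45, 10.35 and 7.45 at 0.32, 7.87, 9.75 and 9.54 at 0.68, and 9.41, 9.73 and 9.82 at 0.95. Every array at 0.95 stood above wild-type and above gcn5 null, but single arrays at the weaker promoters were lower than any wild-type array or higher than any array at 0.95. The difference was 1.03 at 0.95 (95% interval -0.26 to 2.32, limma adjusted p = 0.298) and 0.29 in gcn5 null (limma adjusted p = 0.737). GND2 and SOL4 lie on the same arm of chromosome VII as GCN5 (996869 to 998188), at distances of 6.44 and 10.1 kb from it, and neither passed in the strain that lacks GCN5.

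RKI1 encodes ribose 5-phosphate ketol-isomerase, which makes ribose 5-phosphate (YOR095C, chromosome XV, 503552 to 504328). Its log2 signals were 10.03, 9.54 and 9.66 in gcn5 null and 10.31, 10.64 and 10.45 in wild-type, without overlap. RKI1 fell by 0.72 in gcn5 null (SE 0.24, limma adjusted p = 0.0306), to 0.607 of the wild-type level, and was the only pathway gene with a called fall there. The call was lost without gcn5 null replicate 2 or 3 (-0.62 and -0.68, limma adjusted p = 0.108 and 0.0813) and without wild-type replicate 2 or 3 (-0.63 and -0.73, limma adjusted p = 0.0985 and 0.0649). With gcn5-F221A the signals ran between 10.18 and 10.41 at 0.32, 9.71 and 10.89 at 0.68, and 9.997 and 10.49 at 0.95, all overlapping wild-type, and the slope of -0.23 did not pass (limma adjusted p = 0.555). Without 0.68 replicate 1 the difference at 0.68 was -0.59 and passed (limma adjusted p = 0.0276). At 0.95 RKI1 exceeded gcn5 null by 0.51, which did not pass either (limma adjusted p = 0.124).

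Transketolase, which moves units of a pair of carbons between sugars, is encoded by TKL1 (YPR074C, chromosome XVI, 692796 to 694838) and TKL2 (YBR117C, chromosome II, 474392 to 476437). TKL1 is the main isoenzyme in cells on glucose and TKL2 the minor one. No comparison passed for TKL1. Its strain means ran from 13.57 ± 0.07 at 0.95 to 13.69 ± 0.06 at 0.68, with 13.66 ± 0.04 in gcn5 null and 13.66 ± 0.11 in wild-type (SD, n = 3 each). The 95% interval of its difference from wild-type was -0.14 to 0.16 in gcn5 null and -0.24 to 0.07 at 0.95.

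TKL2 had log2 signals of 7.19, 7.23 and 7.75 in gcn5 null and 7.87, 7.87 and 7.84 in wild-type. With gcn5-F221A it had 7.85, 9.96 and 6.66 at 0.32, 7.64, 9.03 and 8.75 at 0.68, and 9.23, 9.78 and 9.79 at 0.95. The gcn5 null arrays were all below wild-type and the 0.95 arrays all above it, so these strains lay on opposite sides of it. At 0.68, 1 array lay below wild-type and 2 above, and at 0.32 the replicates covered 3.30 log2 units, with both the highest and the lowest TKL2 signal of the series. At 0.95 TKL2 averaged 9.60 ± 0.32, against 7.86 ± 0.02 in wild-type (SD, n = 3 each). That is a log2 difference of 1.74 (SE 0.61, 95% interval 0.42 to 3.05), a 3.33-fold difference with an interval of 1.34 to 8.28, and it did not pass after adjustment over all genes (limma adjusted p = 0.0841). The slope was 1.69 (SE 0.60, limma adjusted p = 0.0728), and the difference of gcn5 null from wild-type was -0.47 (SE 0.61, limma adjusted p = 0.571). Between 0.95 and gcn5 null TKL2 did pass, with a difference of 2.21 (SE 0.61, limma adjusted p = 0.0132), a 4.62-fold difference with a 95% interval of 1.86 to 11.5. TKL2 was picked by the study from these arrays, so its direction here is not independent evidence of a response. The study's rule for graded genes was a monotonic change and p-values under 0.05, with no adjustment named. Before adjustment, the limma p-values of TKL2 here were 0.0135 at 0.95 and 0.0144 for the slope. The study also measured TKL2 by real-time PCR at further promoter strengths. It reported that the graded rise and the lack of change in gcn5 null were both seen there.

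The spread of TKL2 at 0.32 entered every one of these tests, because the strains share 1 variance per gene. Its SD was 1.67 there, the second largest of 5449 genes at that strength, and 0.02 in wild-type, where 2.42% of genes had a smaller one. Without 0.32 replicate 2 the difference of TKL2 at 0.95 was again 1.74 and the adjusted p was 0.00827, with a slope of 1.98 (limma adjusted p = 0.00424), and without 0.32 replicate 3 the adjusted p at 0.95 was 0.0256. The slope also passed without 0.68 replicate 1 (1.84, limma adjusted p = 0.0397). With 0.32 replicates 2 and 3 both left out, an alternative chosen after seeing the data, TKL2 passed at 0.95 (limma adjusted p = 0.00493) and in the slope of 1.79 (limma adjusted p = 0.00569), and so did NQM1 (limma adjusted p = 0.0157 and 0.0154). With only the arrays of 0.95 and wild-type in the fit, TKL2 (limma adjusted p = 0.00142), NQM1 (0.0036), GND2 (0.003) and SOL4 (0.0185) all passed at 0.95. In that fit 926 of all 5449 genes passed. In the same kind of fit for gcn5 null and wild-type, TKL2 was lower in gcn5 null at a limma adjusted p of 0.0229. There 2965 of all 5449 genes passed. The difference of TKL2 between 0.95 and gcn5 null passed in all 25 alternatives, at adjusted p-values of 1.77e-05 to 0.0461.

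Transaldolase, which exchanges a dihydroxyacetone unit between sugar phosphates, is encoded by TAL1 (YLR354C, chromosome XII, 836350 to 837357), and NQM1 encodes its homolog, a minor transaldolase (YGR043C, chromosome VII, 580435 to 581436). TAL1 had log2 signals of 12.69, 12.51 and 12.31 in gcn5 null and 11.77, 12.05 and 11.998 in wild-type. It had 11.84, 11.90 and 11.77 at 0.32, 12.48, 12.08 and 12.63 at 0.68, and 12.09, 12.03 and 12.26 at 0.95. The gcn5 null and the 0.68 arrays stood above wild-type without overlap, and the 0.95 arrays overlapped it. TAL1 rose by 0.57 in gcn5 null (SE 0.14, limma adjusted p = 0.00563), a 1.48-fold rise, and by 0.46 at 0.68 (SE 0.14, limma adjusted p = 0.0475), a 1.37-fold rise. The call at 0.68 was lost when any 1 of 13 arrays was left out, at adjusted p-values of up to 0.185 without wild-type replicate 1 and 0.227 without 0.68 replicate 3, and was kept without 0.68 replicate 2 or 0.32 replicate 3. Without 0.68 replicate 2 the slope of TAL1 passed (0.43, limma adjusted p = 0.0218).

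NQM1 had log2 signals of 8.61, 8.86 and 8.98 in gcn5 null and 8.76, 8.95 and 8.85 in wild-type. It had 8.98, 10.67 and 7.92 at 0.32, 8.65, 9.996 and 9.81 at 0.68, and 9.83, 10.13 and 10.47 at 0.95. The arrays of gcn5 null and wild-type overlapped, those of 0.95 were above both, and replicates 2 and 3 of 0.32 were the highest and the lowest of the series, as they were for TKL2. The difference at 0.95 was 1.29 (SE 0.52, 95% interval 0.17 to 2.41, limma adjusted p = 0.129) and in gcn5 null -0.04 (limma adjusted p = 0.961). At 0.95 it passed without 0.32 replicate 2 or 3 (limma adjusted p = 0.0258 and 0.0484), and its slope passed without 0.32 replicate 2 (1.52, limma adjusted p = 0.0106). Thus in 0.95 against wild-type the arrays of 5 pathway genes did not overlap, where those of 38.8% of all genes did not. In gcn5 null against wild-type this held for 5 pathway genes as well, against 62.9% of all genes.

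**Figure D2:**
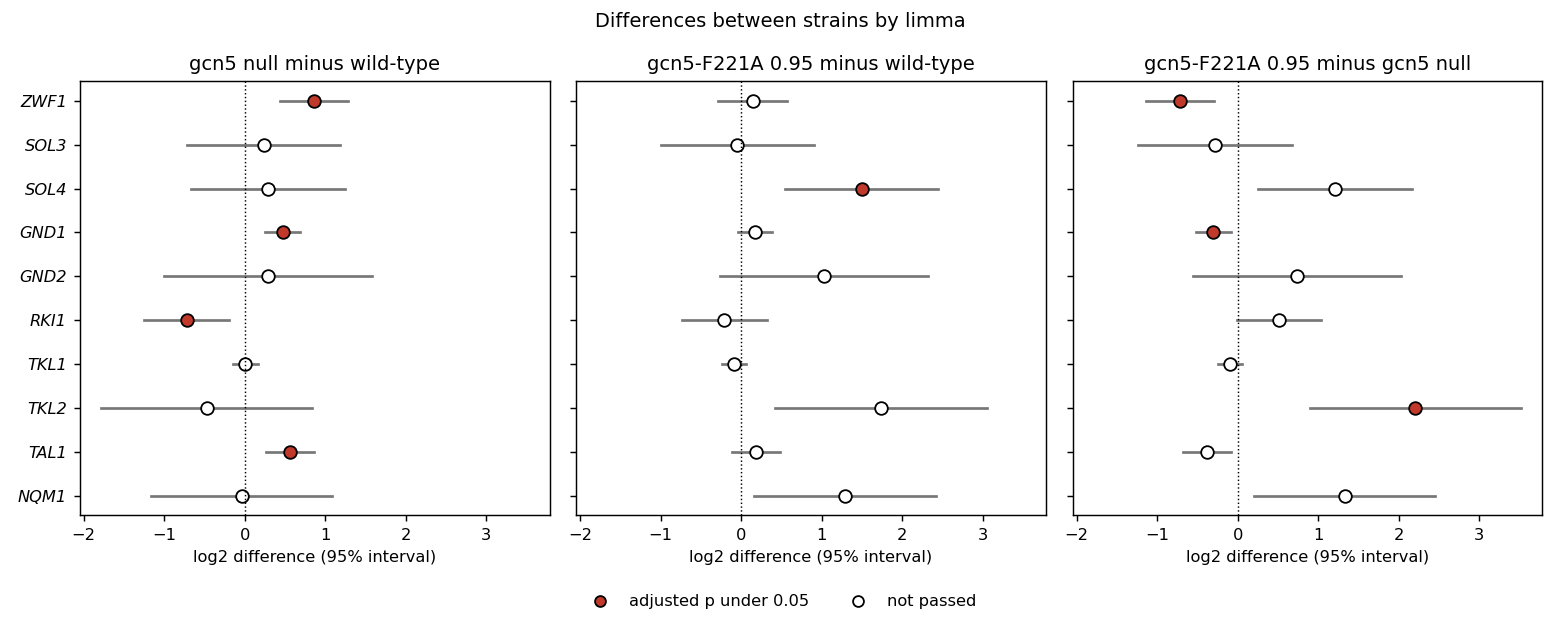
Log2 difference (horizontal axes) of each pathway gene for gcn5 null minus wild-type, gcn5-F221A 0.95 minus wild-type and gcn5-F221A 0.95 minus gcn5 null, with 95% intervals from limma and filled points for an adjusted p under 0.05. ZWF1, GND1 and TAL1 lie right of 0 for gcn5 null, and SOL4, TKL2, NQM1 and GND2 lie farthest right for 0.95, with wide intervals.

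The strains that lack GCN5 and that express the strongest gcn5-F221A were then compared directly. TKL2 was higher at 0.95 than in gcn5 null, and ZWF1 and GND1 were lower, GND1 by a log2 difference of -0.30 (SE 0.10, limma adjusted p = 0.0319). These are 3 of 10 genes, where 33.1% of all genes passed. SOL4 at 1.21 (limma adjusted p = 0.0517), TAL1 at -0.38 (limma adjusted p = 0.0513) and NQM1 at 1.33 (limma adjusted p = 0.0672) did not pass, although the arrays of 7 pathway genes did not overlap between the strains, against 54.6% of all genes. With only the arrays of these strains in the fit, 8 of the 10 genes passed, all but SOL3 and TKL1. In that fit 2314 of all 5449 genes passed, where 1803 did with all strains in the fit. GND1 no longer passed without 0.95 replicate 2 or 3 (-0.29 and -0.27, limma adjusted p = 0.0886 and 0.096) or without gcn5 null replicate 1 or 2 (-0.28 and -0.26, limma adjusted p = 0.0953 and 0.117). SOL4 passed without 0.32 replicate 2 or 3, 0.68 replicate 1 or 3, or 0.95 replicate 1 (limma adjusted p of 0.0242 to 0.0472), NQM1 without 0.32 replicate 2 or 3 or 0.68 replicate 1 (0.00905 to 0.0485), TAL1 without gcn5 null replicate 3, 0.68 replicate 2 or 3, or 0.95 replicate 3 (0.019 to 0.0497), and RKI1 without 0.68 replicate 1 (0.0221). TAL1 also passed with median centring of the arrays (-0.44, limma adjusted p = 0.0187). With quantile normalization over S. cerevisiae probe sets it passed as well (-0.35, limma adjusted p = 0.0354). The comparisons with wild-type share its arrays, and so do those with gcn5 null.

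Between the promoter strengths few pathway genes passed. For 0.95 against 0.32 none of the 10 did, against 1.91% of all genes, and TKL2 differed by 1.44 (limma adjusted p = 0.247) and SOL4 by 1.73 (limma adjusted p = 0.0682). For 0.95 against 0.68 none did, against 4.99%, with TKL2 at 1.13 (95% interval -0.19 to 2.44, limma adjusted p = 0.335). TAL1 was higher at 0.68 than at 0.32 by 0.55 (SE 0.14, limma adjusted p = 0.0493), 1 of 10 genes against 3.36%. In the order of strain means TKL2 thus stood lowest in gcn5 null at 7.39 ± 0.31, then wild-type at 7.86 ± 0.02, 0.32 at 8.16 ± 1.67, 0.68 at 8.47 ± 0.73 and 0.95 at 9.60 ± 0.32 (SD, n = 3 each), and no neighbours in this order differed by the limma test.

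The question whether the minor isoenzyme responded differently from the major one was addressed within arrays, since the difference of a pair of signals on 1 array does not depend on that array's overall scale. TKL2 minus TKL1 had a slope of 1.75 over promoter strength (exact permutation test, two-sided, p = 0.0407, adjusted over the 4 pairs p = 0.0814). Without 0.32 replicate 2 the slope was 2.05 (exact test, adjusted p = 0.0161), and without 0.68 replicate 1 it was 1.91 (adjusted p = 0.0486). NQM1 minus TAL1 had a slope of 0.91 (exact p = 0.172, adjusted p = 0.23) and GND2 minus GND1 one of 0.82 (exact p = 0.293, adjusted p = 0.293), so that of the 4 pairs only SOL4 minus SOL3 passed. All 4 slopes were positive. In gcn5 null the pair differences moved from wild-type by 0.05 for SOL4 minus SOL3, -0.18 for GND2 minus GND1, -0.48 for TKL2 minus TKL1 and -0.61 for NQM1 minus TAL1, with exact p-values of 0.80, 0.60, 0.20 and 0.10, where 3 arrays against 3 cannot go below 0.10.

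**Figure D3:**
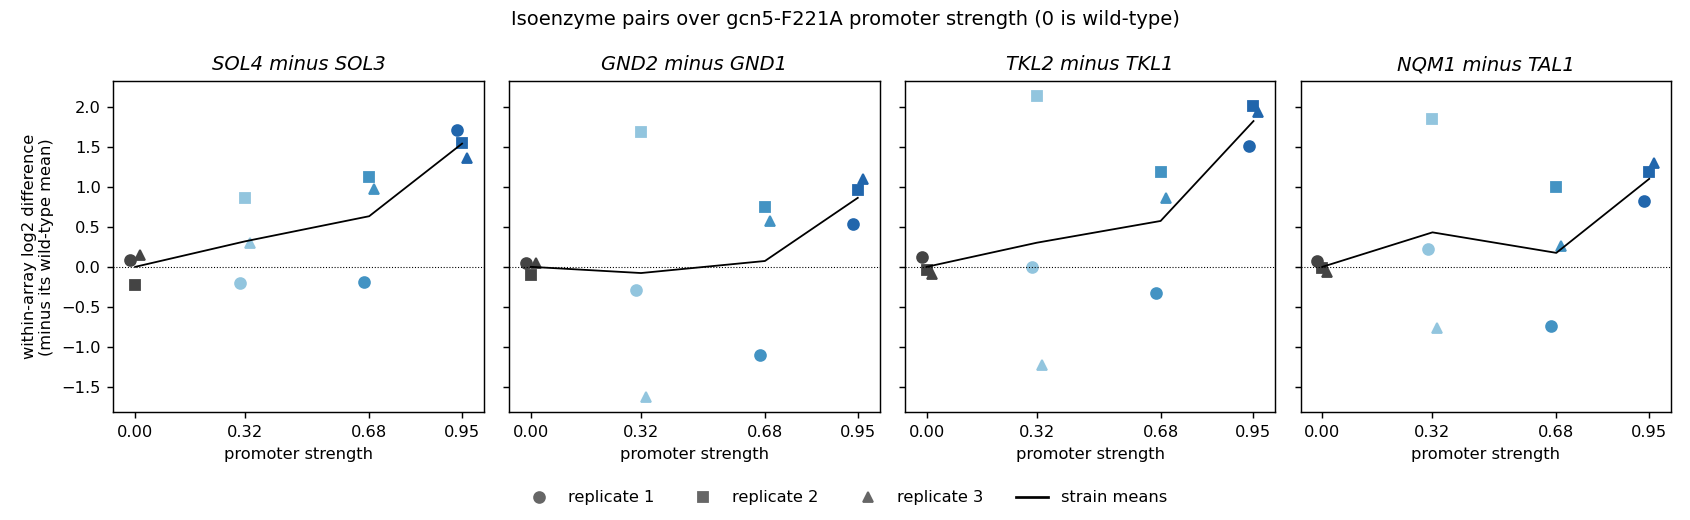
Within-array log2 difference of each isoenzyme pair, relative to its wild-type mean (vertical axis), against gcn5-F221A promoter strength (horizontal axes, 0 being wild-type), for each array, with a line through the strain means. The 3 arrays at 0.95 lie above wild-type in every pair, and at 0.32 replicates 2 and 3 are far apart for GND2, TKL2 and NQM1.

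NQM1 and GND2 followed TKL2 from array to array, and SOL4 did so less closely. Over the 15 arrays TKL2 correlated with NQM1 at r = 0.975 (Spearman's rho 0.911, permutation test p = 1e-05, the smallest that 100000 resamples can give, adjusted p = 0.0001), with GND2 at r = 0.88 (rho 0.804, permutation p = 3e-05, adjusted p = 0.00015) and with SOL4 at r = 0.773 (rho 0.672, permutation p = 0.00074, adjusted p = 0.00247), adjusted over 10 relations. Leaving out the pair of arrays farthest from the TKL2 median gave r = 0.96, 0.825 and 0.772. After the strain means were removed the values were 0.985, 0.976 and 0.738. These rest mostly on the 0.32 arrays, where the SD of TKL2 was 1.67, against 0.73 at 0.68 and 0.02 in wild-type. Without the 0.32 arrays, and with strain means kept, r was 0.963, 0.808 and 0.781. In gcn5 null NQM1 and GND2 rose with TKL2 over replicates 1 to 3, while SOL4 fell (10.23, 10.04 and 9.96). At 0.68 SOL4 was highest on replicate 3 (11.55) and TKL2 on replicate 2 (9.03). In wild-type SOL4 ran from 9.39 to 10.18, while TKL2 stayed between 7.84 and 7.87. TKL1 (r = -0.499, permutation p = 0.0567), GND1 (r = -0.435, permutation p = 0.106), TAL1 (r = -0.128), SOL3 (r = 0.131), RKI1 (r = 0.103) and ZWF1 (r = -0.019) did not pass. With strain means removed, GND1 went the other way from TKL2, at r = -0.745, and ZWF1 the same way, at r = 0.624. These values too rest mostly on the spread of TKL2 at 0.32. The arrays of 1 strain share its genotype, and all arrays share a common normalization.

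Among 5223 genes with a mean above background, NQM1 was the gene most like TKL2, GND2 ranked 17 and SOL4 ranked 62 by Pearson correlation over the 15 arrays. The next 4 were GRE1 (r = 0.967), a stress-induced hydrophilin, FMP16 (r = 0.943), POT1 (r = 0.938), the peroxisomal thiolase of fatty acid oxidation, and YMR090W (r = 0.935). Stress genes moved with this group. Of 23 genes known to be induced through the stress factors Msn2 and Msn4, 9 rose and none fell at 0.95, where 12.5% of all genes passed in either direction, and 14 rose in the slope, against 15.7%. Their median differences were 0.78 at 0.95 and 0.96 for the slope. Examples are CTT1, the cytosolic catalase, at 2.19, TFS1, a carboxypeptidase inhibitor, at 1.81 and RTN2, a reticulon, at 1.60 (limma adjusted p = 0.018, 0.0219 and 0.021). In gcn5 null 6 of the 23 rose and none fell, where 41.0% of all genes passed in either direction and 1003 of 5449 rose. The median of the 23 was 0.48 there. HSP26, a small heat shock protein, was among those that rose, by 2.20 (limma adjusted p = 0.00258).

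On the arrays of 0.32 the mean of the 23 stress genes was 10.49, 11.25 and 10.17, in the same order of arrays as TKL2. Over all 15 arrays it correlated with TKL2 at r = 0.743 (rho 0.646, permutation p = 0.00192, adjusted p = 0.0048), at 0.733 without the 2 farthest arrays and at 0.898 after strain means were removed. The last value rests mostly on the 0.32 arrays, and without those arrays, with strain means kept, r was 0.705. In gcn5 null the stress mean lay between 11.04 and 11.15, above the 10.46 to 10.81 of wild-type, while TKL2 lay below wild-type there. The part of the stress genes, and of the 5′ minus 3′ signal, in the TKL2 differences was not tested.

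**Figure D4:**
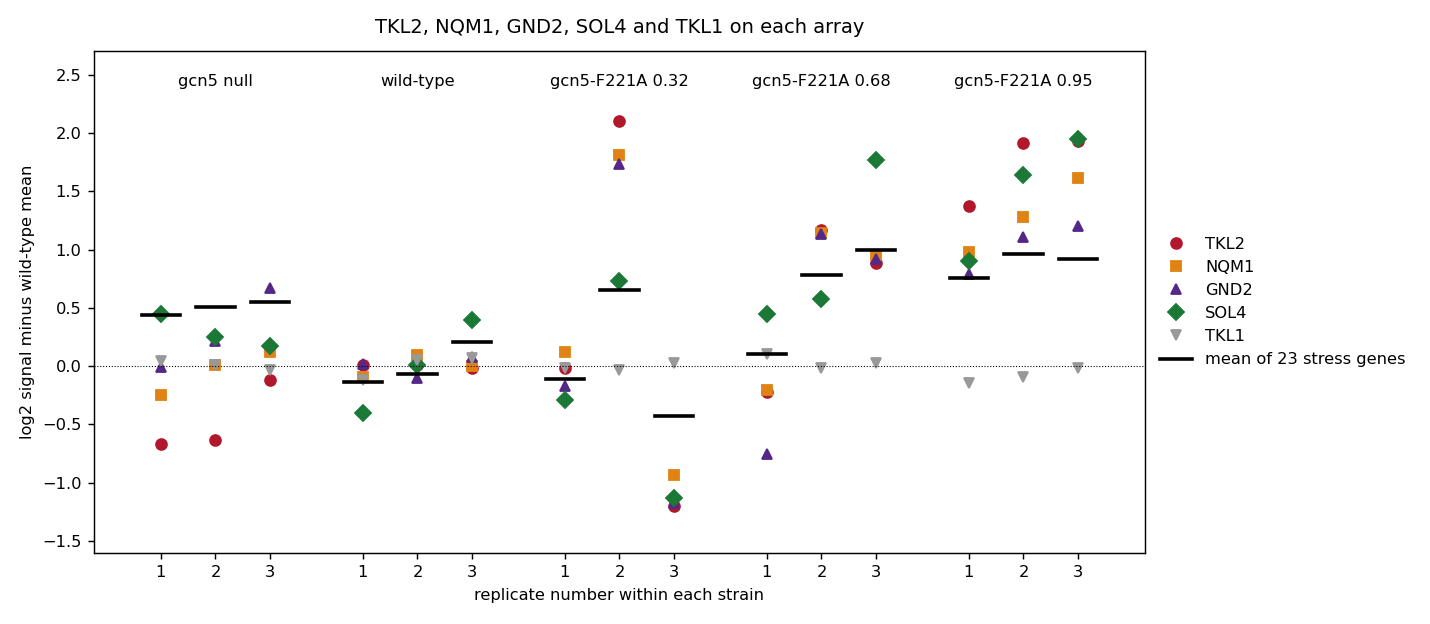
Log2 signal minus the wild-type mean (vertical axis) of TKL2, NQM1, GND2, SOL4 and TKL1 and of the mean of 23 stress genes, on each array (horizontal axis, replicate numbers within strains). TKL2, NQM1 and GND2 rise and fall together between the arrays of 0.32 and of 0.68 while TKL1 stays near 0, and in gcn5 null the stress mean is above 0 with TKL2 below it.

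The genes around the pathway were followed through 4 lists, whose counts stand against the 41.0% of all genes that passed in gcn5 null and the 12.5% at 0.95. Of 14 neighbours of the pathway, 5 rose and 2 fell in gcn5 null, and 2 rose at 0.95, with median differences of 0.07 and -0.05, so their shares lay near those of all genes. GRE3, an aldose reductase that also reduces xylose, rose in both, by 0.71 in gcn5 null (limma adjusted p = 0.00409) and by 0.97 at 0.95 (limma adjusted p = 0.00269). So did SOL2, a homolog of SOL3 without known lactonase activity, by 0.62 and 0.57. RBK1, ribokinase, rose by 0.77 and XYL2, xylitol dehydrogenase, by 0.61 in gcn5 null, and at 0.95 their differences were 0.20 and -0.03, which did not pass. The epimerase gene RPE1 did not pass in gcn5 null (0.42, limma adjusted p = 0.299) or at 0.95 (0.28, limma adjusted p = 0.617).

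Of 11 genes of other NADPH sources and their regulation, 3 rose and none fell in gcn5 null. There 41.0% of all genes passed in either direction and 1003 of 5449 rose. At 0.95, 2 of the 11 rose and none fell, near the 12.5% of all genes that passed in either direction, and 395 of 5449 rose. The median differences were 0.16 and 0.12. ALD6, the cytosolic aldehyde dehydrogenase that is the other main source of NADPH on glucose, rose by 1.62 at 0.95 (SE 0.29, limma adjusted p = 0.00364), while its difference in gcn5 null was 0.04 (limma adjusted p = 0.927), and the difference between these strains was 1.58 (limma adjusted p = 0.00114). ALD6 did not follow the order of the promoter strengths, with differences from wild-type of 0.42 at 0.32 and -0.46 at 0.68 that did not pass (limma adjusted p = 0.655 and 0.309), and at 0.95 it exceeded 0.68 by 2.08 (limma adjusted p = 0.00265). POS5, the mitochondrial NADH kinase, rose by 0.68 in gcn5 null (limma adjusted p = 0.000421), where UTR1, a cytosolic NAD kinase, rose by 0.46 (limma adjusted p = 0.00132). YEF1, its homolog, rose by 0.60 at 0.95 (limma adjusted p = 0.0238). Its signal was near background, with a mean of 5.20 in wild-type and 5.80 at 0.95, where 95% of S. pombe probe sets lay below 5.20. STB5, the activator of several pathway genes, did not pass in any of these comparisons, with 0.19 in gcn5 null and 0.14 at 0.95.

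Of 6 enzymes that make or use glucose 6-phosphate, 4 rose in gcn5 null, and at 0.95 1 rose and 2 fell, with median differences of 0.58 and 0.32, beside 41.0% and 12.5% of all genes called. The hexokinase genes HXK1 and HXK2 rose by 1.52 and 0.94 in gcn5 null (limma adjusted p = 0.00177 and 1.85e-05), and at 0.95 HXK1 rose by 1.11 (limma adjusted p = 0.0329) and HXK2 fell by 0.39 (limma adjusted p = 0.0233). GLK1, glucokinase, rose by 0.86 in gcn5 null, and PGM2, phosphoglucomutase, had a slope of 0.96 (limma adjusted p = 0.0494). Of the 4 genes that take erythrose 4-phosphate into aromatic amino acids, 3 rose in gcn5 null, where 41.0% of all genes passed, ARO3 by 0.82, ARO4 by 0.34 and ARO2 by 0.20. At 0.95 only ARO1 passed, which fell by 0.24 (limma adjusted p = 0.0443), and all 4 were lower at 0.95 than in gcn5 null, a comparison in which 33.1% of all genes passed. ARO3 and ARO4, the DAHP synthases at the branch point, differed there by -1.16 and -0.66.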

How the data were processed

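The authors summarized each probe set of the Affymetrix Yeast 2.0 arrays by RMA, with background correction and quantile normalization, and deposited log2 signals for 10928 probe sets, which were used as deposited. By the platform's gene annotation, 5498 probe sets carried an S. cerevisiae gene, and of the 47 genes with several the brightest probe set was kept, which left 5449 genes. Positions are those of assembly R64. Depth has no meaning for arrays. Precision is limited by their number, and a 95% interval for a difference between 2 strains reached a median of 0.27 to either side.

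Differences came from limma 3.58.1 (R 4.3.3), in 1 model with 5 strain means, moderated variances with 10 residual degrees of freedom, and p-values adjusted by Benjamini and Hochberg over 5449 genes at a threshold of 0.05. The slope was taken over strengths 0, 0.32, 0.68 and 0.95. Slopes of the pair differences were tested by enumerating all arrangements of the arrays with numpy 2.4.6. Pair differences between gcn5 null and wild-type were tested with scipy 1.17.1, and plots were drawn with matplotlib 3.10.9.

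The pathway genes, lists and tests were chosen with earlier results of these data known. Named were all 10 pathway genes, GCN5, up to 4 called genes of each list with the largest differences, and the 5 genes most like TKL2 among those above background. RPE1 and STB5 were named beyond this rule, after their values were seen. No pairing by replicate number was assumed: once strain means were removed, arrays of the same number correlated at a mean of -0.07 and other arrays at 0.04. No arrays held identical values. Alternatives covered the probe sets tested, dim genes, the normalization, variance moderation, the probe set per gene, the arrays in the fit, a replicate block and each array left out.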

Additional observations from a re-analysis of the deposited data

Results flagged for a closer look

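In 3 of the 10 pathway genes the effect of gcn5-F221A at 0.95 differed from that of the GCN5 deletion by a test of the difference itself. That share does not set the pathway apart, since 33.1% of all genes passed this test. TKL2 differed by 2.21 between 0.95 and gcn5 null (limma adjusted p = 0.0132), with arrays of 0.95 above wild-type and arrays of gcn5 null below it. Neither of its differences from wild-type passed (limma adjusted p = 0.0841 at 0.95 and 0.571 in gcn5 null). ZWF1 differed by -0.72 (limma adjusted p = 0.0134) and GND1 by -0.30 (limma adjusted p = 0.0319), and both stood highest in gcn5 null. The GND1 difference did not pass with all probe sets (limma adjusted p = 0.0585), with quantile normalization over S. cerevisiae probe sets (0.0566) or with the replicate block (0.0546).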

How the results depend on the processing

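The rises of ZWF1, GND1 and TAL1 in gcn5 null and the difference of TKL2 between 0.95 and gcn5 null passed in all 25 alternatives, the fall of RKI1 in gcn5 null in 21 of 25, the slope of SOL4 in 20 of 24 and its rise at 0.95 in 14 of 25. The number of pathway genes called in gcn5 null was 3 to 5 and that at 0.32 was 0 under every alternative. Over the same alternatives 1681 to 2965 of all genes passed in gcn5 null. At 0.68 it was 2, and 1 with quantile normalization over S. cerevisiae probe sets. It was 0 with all probe sets, with the replicate block and with only the arrays compared, where 4 of all genes passed. As single arrays were left out it was 0 to 3, and 72 to 1451 of all genes passed. In the main fit 675 did. At 0.95 it was 1, and it was 0 with all probe sets and with the replicate block. It was 4 with only the arrays compared, where 926 of all genes passed. Without the strains 0.32 and 0.68 it was also 4, where 1287 of all genes passed, against 680 in the main fit. As single arrays were left out it was 0 to 3, and 379 to 947 of all genes passed. For the slope it was 1, where 853 of all genes passed in the main fit. As single arrays were left out it was 0 to 3, and 425 to 1290 of all genes passed. Between 0.95 and gcn5 null it was 3, and 2 with all probe sets and with the replicate block. With median centring of the arrays it was 4, as TAL1 passed too. With quantile normalization over S. cerevisiae probe sets it was 3, with TAL1 in place of GND1. It was 8 with only the arrays compared and 8 without the strains 0.32 and 0.68. As single arrays were left out it was 2 to 6, and 1379 to 2042 of all genes passed. Beside both counts of 8, more of all 5449 genes passed than the 1803 of the main fit. They were 2314 with only the arrays compared and 2421 without the strains 0.32 and 0.68. The alternatives without 0.32 arrays 2 and 3 or without the strains 0.32 and 0.68 were chosen after seeing the data. The replicate block changed the calls of SOL4 at 0.95 (limma adjusted p = 0.0576), GND1 and TAL1 at 0.68 (0.0568 and 0.0726) and GND1 between 0.95 and gcn5 null (0.0546), and no other pathway gene's call against wild-type, in the slope or between 0.95 and gcn5 null, and 5 of 15 arrays correlated best with an array of their own number. As single arrays were left out, the slope of SOL4 minus SOL3 ran from 1.40 to 1.67 and that of TKL2 minus TKL1 from 1.5 to 2.05.

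Signs turned only for differences that were not called. Quantile normalization gave NQM1 0.0109 in gcn5 null and TKL1 0.011 at 0.32, and without 0.32 arrays 2 and 3 GND2 was at -0.17 and TKL2 at -0.0171 at 0.32. As single arrays were left out, differences at 0.32 ran from -0.67 to 0.78 for GND2, -0.61 to 1.04 for TKL2, -0.41 to 0.97 for NQM1, -0.71 to 0.22 for SOL4, -0.27 to 0.0034 for ZWF1 and -0.0687 to 0.0275 for TKL1. In gcn5 null they ran from -0.0069 to 0.36 for SOL3, -0.0518 to 0.0445 for TKL1 and -0.118 to 0.0648 for NQM1. For TKL1 at 0.68 the range was -0.0232 to 0.0731, and for SOL3 it was -0.36 to 0.34 at 0.95, -0.60 to 0.10 between 0.95 and gcn5 null, and -0.036 to 0.592 for the slope. The cause of these changes was not tested. The difference of TAL1 between 0.68 and 0.32 was not recomputed. With the variance shared over all 5 strains, GND2 at 1.03 and NQM1 at 1.29 were not called at 0.95, and with only the arrays compared both were (limma adjusted p = 0.003 and 0.0036).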
